A study of Homo sapiens with 12 samples.

Results

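The semaphorins, plexins and neuropilins were followed through RNA-seq of MiaPaca2 cells, an established human line of pancreatic ductal adenocarcinoma (PDAC). Members were the protein-coding genes of GENCODE v44 whose symbols belong to the vertebrate semaphorin classes 3 to 7, to plexins A to D or to the neuropilins, which gave 31 of the 63677 Ensembl identifiers in the count tables. There were 4 groups of 3 libraries. Con cells received DMSO, and CPT cells received 1 µM calcipotriol, a Vitamin D analogue. Primed cells received 2 mM GTA (glyceryl triacetate, a source of acetate for histone acetylation) together with 1 µM 5-Aza (a DNA methyltransferase inhibitor), either alone (GTA+5-Aza) or with 1 µM CPT (CPT+GTA+5-Aza). All cells were labelled WT and were treated for 24 h. MiaPaca2 is a single cell line, and GTA and 5-Aza were never given separately, so the values describe this line and the pair of drugs. The labels do not say that the 3 libraries of a group came from separate experiments, so p-values measure the spread between these libraries.

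Semaphorins are guidance cues that were described first in growing axons and that also act on vessels, immune cells and tumors. Class 3 semaphorins are secreted and most of them signal through a complex of a neuropilin, which binds the ligand, and a class A plexin, which carries the signal, whereas classes 4 to 7 are held in the membrane and bind plexins directly. Plexins act on small GTPases and thereby on integrin adhesion and the actin cytoskeleton, and axon guidance genes are known to be altered in PDAC.

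Total counts ran from 16162490 to 21224665 per library, and edgeR tested 17123 genes, among them 23 members. The line carried its epithelial markers unevenly. KRT8 (1409 to 1740 CPM over the 12 libraries), KRT18, KRT19 and SOX9 were expressed. EPCAM, in contrast, had at most 1 count and CDH1 at most 4 counts in any library. VIM, a mesenchymal marker, was the most abundant gene of the list, at 5308 to 6593 CPM. Of the markers of other cells, the endothelial and leukocyte lists summed to at most 0.624 and 0.508 CPM in a library, and PECAM1, CDH5, CD3E and ELAVL4 were at 0. Of 5 fibroblast markers, COL1A2 made up nearly all of a summed level of 790 to 843 CPM in Con, 689 to 763 in CPT, 875 to 944 in GTA+5-Aza and 815 to 842 in CPT+GTA+5-Aza, whereas LUM was at 0 in every library. COL1A1 moved with priming, from at most 5 counts in any unprimed library to 21 to 44 counts in primed ones. The summed neural list, almost all of it SNAP25, ran from 8.01 to 11.2 CPM in unprimed libraries, from 12.8 to 15.4 in GTA+5-Aza and from 8.32 to 12.5 in CPT+GTA+5-Aza. Their part in the results below was not tested.

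In Con the secreted class 3 ligands SEMA3A and SEMA3C were the most abundant members, while the neuropilins that bind them were almost absent. Levels are given here as counts scaled to library size (CPM) and divided by exon length (CPM per kb), which allows genes to be compared. SEMA3A stood at 50.6 ± 4.15 (SD, n = 3) and SEMA3C at 49.8 ± 1.64, and these neighbours in the order did not differ beyond their spread. SEMA6B followed at 32.5 ± 2.82 CPM per kb. The plexins PLXND1, PLXNA1 and PLXNB2 came next, at 21.5 ± 0.796, 19.7 ± 0.663 and 18.2 ± 1.16 CPM per kb, and PLXND1 and PLXNA1 lay further apart than their SDs, whereas PLXNA1 and PLXNB2 lay within them. Summed per class, class 3 semaphorins had 113 ± 5.52 CPM per kb and the 2 neuropilins 0.167 ± 0.0273 CPM per kb. NRP1 itself stood at 0.164 ± 0.0294 CPM per kb and NRP2 had 0 to 1 counts in the Con libraries. In bulk RNA, fewer cells that express a gene and less RNA per cell cannot be told apart.

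**Figure D1:**
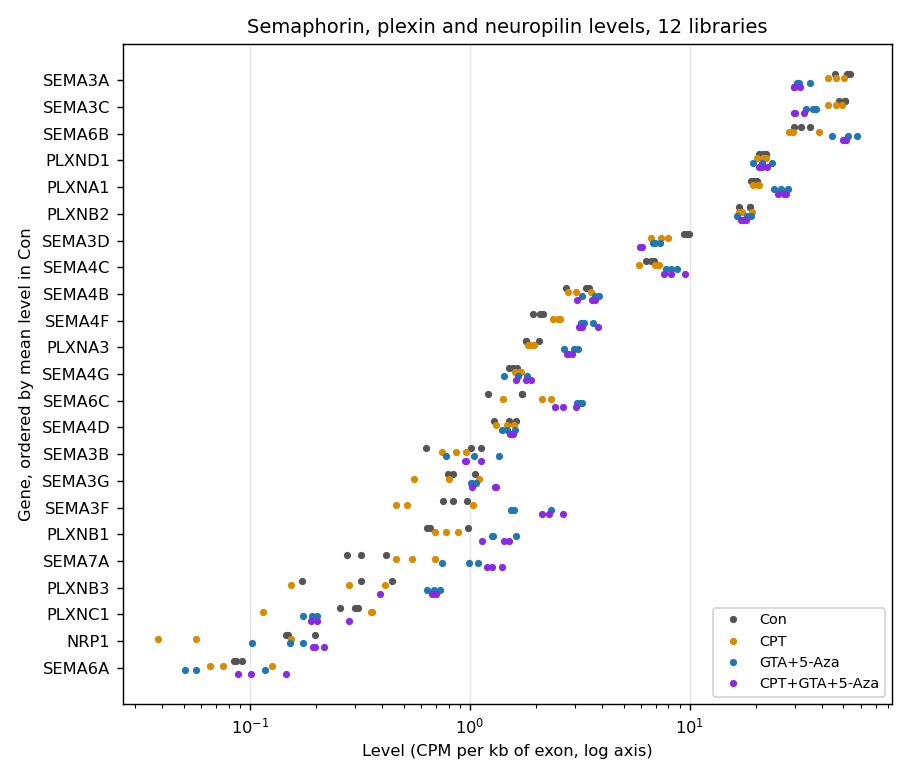
Level of the 23 tested members in each of the 12 libraries, in CPM per kb of exon on a log axis, with genes ordered by their mean in Con and a point per library coloured by group. SEMA3A, SEMA3C and SEMA6B sit at the top and NRP1 and SEMA6A at the bottom, and the primed libraries of SEMA3A and SEMA3C lie left of the unprimed ones.

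Not all ligands and receptors were detected. PLXNA2, SEMA3E and SEMA6D had 0 counts in all 12 libraries. A count of 0 allows up to 3 counts, and this limit also holds for their total over the 12 libraries. PLXNA4, SEMA5A and SEMA5B had 3, 4 and 2 counts over all libraries together. These 6 members were not measured. NRP2, the neuropilin preferred by SEMA3F, had 37 counts and SEMA4A 13 counts in all 12 libraries, too few to be tested. Among the absent ligands were known partners of receptors that were present. SEMA3E, which binds PLXND1 without a neuropilin, was at 0, whereas PLXND1 had the highest level per kb of the plexins in Con. In primed cells PLXNA1 stood higher, at 26.03 CPM per kb in GTA+5-Aza beside 21.5 for PLXND1. SEMA5A, a ligand of PLXNB3, had counts in 1 library only, GTA+5-Aza replicate 2.

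The question of how priming changed these genes was asked with 2 comparisons that share no library, priming alone (GTA+5-Aza against Con) and priming with CPT (CPT+GTA+5-Aza set against CPT). A gene was called where the quasi-likelihood test of edgeR gave an adjusted p under 0.05. With priming alone, 10 members rose and 3 fell, beside 9.95% and 7.53% of all tested genes. Those that rose were SEMA7A, PLXNB3, SEMA3F, SEMA6C, PLXNB1, SEMA4F, SEMA6B, PLXNA3, PLXNA1 and SEMA4C, and those that fell were SEMA3A, SEMA3C and SEMA3D. With CPT again 10 rose and 3 fell, beside 9.57% and 7.39% of all genes. Of these calls 12 were made in both comparisons, 9 higher and 3 lower, and SEMA6C was called with priming alone and NRP1 with CPT present. All GTA+5-Aza libraries lay above all Con libraries for 10 members, beside 18.1% of all genes, and below them for 4, beside 16%. The median over the 23 members, as log2 fold change, was 0.20 with priming alone and 0.33 with CPT, and over all genes it was 0.0069 and 0.0055. The study's methods asked for fold changes significantly above 1.5, at P under 0.05. Here its thresholds were read as an unadjusted P under 0.05 against no change, together with a fold change above 1.5. So read, 9 members passed with priming alone and 7 with CPT, beside 8.44% and 8.67% of all genes. Scaled to library totals rather than by TMM, 11.8% of all genes were called higher and 5.3% lower with priming alone, and the members' counts stayed at 10 and 3. By class, 4 of 7 tested plexins rose in each comparison and none was called lower, whereas class 3 semaphorins had 1 riser and 3 fallers among 6.

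**Figure D2:**
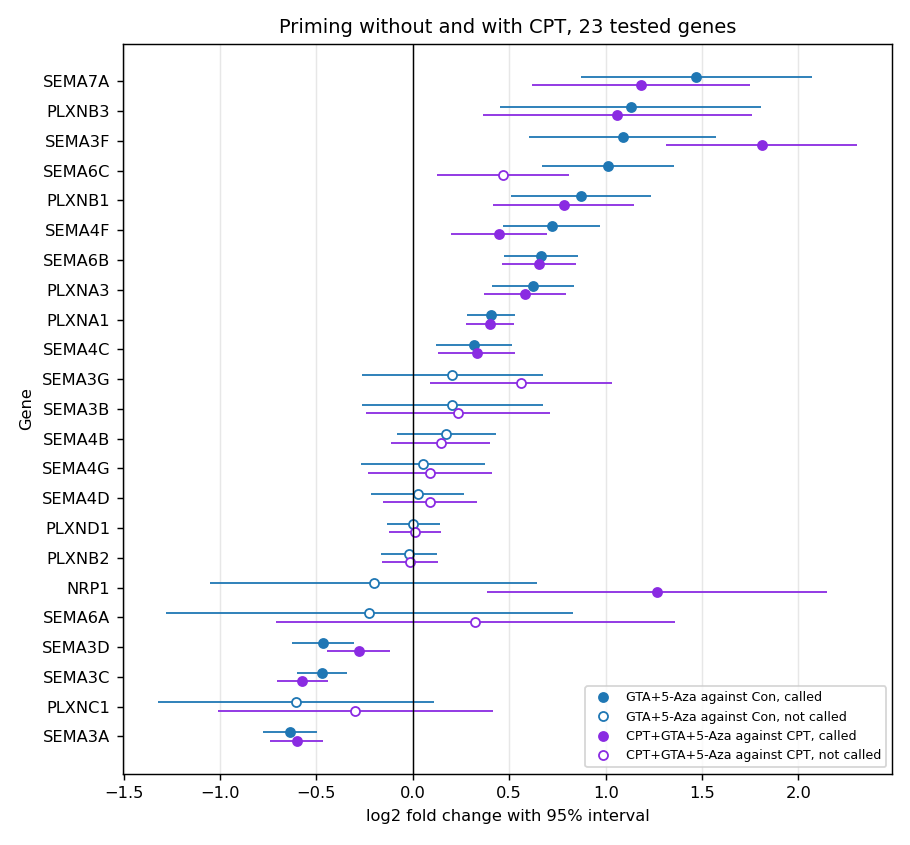
Log2 fold changes of the 23 tested members with 95% intervals, for GTA+5-Aza against Con (blue) and for CPT+GTA+5-Aza set against CPT (violet), where filled points have an adjusted p under 0.05. SEMA3A, SEMA3C and SEMA3D are filled and below 0 in both comparisons, 9 genes from SEMA4C to SEMA7A are filled and above 0 in both, and NRP1 and SEMA6C are filled in 1 comparison each.

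The members that fell are 3 secreted ligands encoded in a single stretch of chromosome 7. SEMA3A (ENSG00000075213, chromosome 7 from 83955777 to 84492724 on the minus strand) is the founding collapse-inducing cue that acts through NRP1 and class A plexins, SEMA3C (ENSG00000075223, chromosome 7 from 80742538 to 80922359 on the minus strand) can bind either neuropilin, and SEMA3D (ENSG00000153993, chromosome 7 from 84995553 to 85187056 on the minus strand) belongs to the same secreted class. Between SEMA3C and SEMA3A lies SEMA3E, which was not measured. This stretch of 4.44 Mb on GRCh38 holds 32 annotated genes, of which 8 were tested. Of the 5 tested genes there that are not members, the pseudogene DDX43P3 was called lower with priming alone (log2 fold change -3.25, adjusted p = 0.0442) but not with CPT (-1.34, adjusted p = 0.337). The other 4 were not called in either comparison. With priming alone the pseudogene CDHR17P had a log2 fold change of -1.18 (adjusted p = 0.0618) and CACNA2D1 0.185 (0.821). PCLO had -0.269 (adjusted p = 0.886) and the noncoding LINC03017 -0.071 (0.927). Intervals are not given for these genes, so the lack of a call does not show that they were unchanged.

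The sequences before the starts of SEMA3C and SEMA3D, which fell, and of PLXNA1, PLXNA3 and SEMA4F, which rose, are shown because 5-Aza acts on methylation of cytosine in CpG. They are the 250 bases before a gene's RefSeq start (GRCh38.p14), written 5′ to 3′ on the gene's strand with each CG in capitals, and methylation itself was not measured in these libraries. SEMA3C has an entry at each of 2 starts, of which the outer is shown, because the inner stretch lies within the annotated gene. The PLXNA1 stretch shown also lies within its annotated gene, which starts at 126982693. SEMA3A, SEMA6A, SEMA6B and NRP1 have no entry.
SEMA3C, chr7:80922390-80922639, minus strand: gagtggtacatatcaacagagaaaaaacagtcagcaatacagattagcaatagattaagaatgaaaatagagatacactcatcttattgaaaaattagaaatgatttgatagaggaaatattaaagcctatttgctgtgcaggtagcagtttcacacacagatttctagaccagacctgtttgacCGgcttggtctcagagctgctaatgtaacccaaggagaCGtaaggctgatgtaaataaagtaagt
SEMA3D, chr7:85187057-85187306, minus strand: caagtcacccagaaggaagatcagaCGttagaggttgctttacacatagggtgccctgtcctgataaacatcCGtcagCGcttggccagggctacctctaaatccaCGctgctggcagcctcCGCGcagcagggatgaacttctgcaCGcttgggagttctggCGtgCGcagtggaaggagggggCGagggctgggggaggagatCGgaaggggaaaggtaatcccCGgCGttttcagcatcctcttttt
PLXNA1, chr3:126982865-126983114, plus strand: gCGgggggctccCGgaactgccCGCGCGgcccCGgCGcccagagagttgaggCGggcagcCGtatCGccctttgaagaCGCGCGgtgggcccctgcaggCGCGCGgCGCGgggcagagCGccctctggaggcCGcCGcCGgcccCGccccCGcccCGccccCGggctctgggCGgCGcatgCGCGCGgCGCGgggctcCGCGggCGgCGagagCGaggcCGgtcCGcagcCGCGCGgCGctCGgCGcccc
PLXNA3, chrX:154458031-154458280, plus strand: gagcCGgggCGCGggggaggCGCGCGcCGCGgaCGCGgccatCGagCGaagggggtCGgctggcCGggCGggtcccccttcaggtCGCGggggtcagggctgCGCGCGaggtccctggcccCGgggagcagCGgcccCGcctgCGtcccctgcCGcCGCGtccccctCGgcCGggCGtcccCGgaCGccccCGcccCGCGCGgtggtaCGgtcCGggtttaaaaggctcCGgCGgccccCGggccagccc
SEMA4F, chr2:74653997-74654246, plus strand: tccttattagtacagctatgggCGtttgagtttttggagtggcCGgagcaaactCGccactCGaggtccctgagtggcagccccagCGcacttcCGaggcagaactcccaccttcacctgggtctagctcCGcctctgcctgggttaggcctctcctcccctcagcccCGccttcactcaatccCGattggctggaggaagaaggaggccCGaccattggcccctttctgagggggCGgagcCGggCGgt

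The stretches differ widely in CG, also within a gene. The SEMA3C stretch shown holds 2 CG and the one at its inner start 39 CG, SEMA3D and SEMA4F hold 13 CG each although SEMA3D fell and SEMA4F rose, and PLXNA1 and PLXNA3 hold 46 and 41 CG, more than 99.6% and 98.3% of all stretches. Over the 35116 stretches of all genes the median was 11 CG. The 27 members with an entry have 48 stretches, with a median of 15 CG. Stretches of members called higher with priming alone (13 stretches of 9 genes) had a median of 30 CG, and those of tested members that were not called (16 stretches of 8 genes) had 13, as had the 3 stretches of SEMA3C and SEMA3D. The GC box GGGCGG, searched on both strands, stood in 84.6%, 75% and 33.3% of these stretches. It stood in 62.5% of all members' stretches and in 42.6% of the stretches of all genes, and the TATA box TATAAA, on either strand, in 2.08% and 10.7%. These are descriptions of the sequence, and which start the cells use is not known from counts per gene.

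SEMA3A had 498, 425 and 483 CPM in the Con libraries, 429, 392 and 464 in CPT, 291, 326 and 286 in GTA+5-Aza and 295, 275 and 276 in CPT+GTA+5-Aza. Each primed library lay below every unprimed library. It fell 1.56-fold with priming alone (log2 fold change -0.64, SE 0.067, adjusted p = 2.23e-07) and 1.52-fold with CPT (log2 fold change -0.60, SE 0.067, adjusted p = 5.06e-07). SEMA3C had 309, 292 and 311 CPM in the Con libraries, 282, 261 and 301 in CPT, 222, 229 and 206 in GTA+5-Aza and 202, 182 and 183 in CPT+GTA+5-Aza. Here too the primed libraries lay below all unprimed ones, the CPT+GTA+5-Aza libraries lowest. The log2 fold change of SEMA3C was -0.47 (adjusted p = 7.6e-06) without CPT and -0.57 (adjusted p = 4.76e-07) with CPT. SEMA3D had 77.7, 80.3 and 82.1 CPM in the Con libraries, 61.2, 54.8 and 65.5 in CPT, 55.99, 60.3 and 57.3 in GTA+5-Aza and 50.3, 49.3 and 49.6 in CPT+GTA+5-Aza. Its Con libraries stood apart from all other groups, and the CPT and GTA+5-Aza libraries overlapped. Priming lowered SEMA3D by 1.38-fold without CPT (log2 fold change -0.47, adjusted p = 0.000124) and by 1.22-fold with CPT (log2 fold change -0.28, adjusted p = 0.0151). The latter call was lost without CPT replicate 3 (adjusted p = 0.0768) and without CPT+GTA+5-Aza replicate 2 (0.0552).

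Of the other secreted ligands that were tested, SEMA3F was called in the opposite direction. SEMA3F (ENSG00000001617, chromosome 3 from 50155045 to 50189075 on the plus strand), known as a tumor suppressor in a deleted stretch of chromosome 3, had 3.63, 4.67 and 4.04 CPM in the Con libraries, 5.00, 2.51 and 2.24 in CPT, 7.64, 7.41 and 11.3 in GTA+5-Aza and 10.2, 12.8 and 11.1 in CPT+GTA+5-Aza. All primed libraries were above all unprimed ones, and CPT replicate 1 was the highest unprimed library. SEMA3F rose 2.13-fold with priming alone (log2 fold change 1.09, SE 0.24, adjusted p = 0.00175) and 3.50-fold with CPT (log2 fold change 1.81, SE 0.24, adjusted p = 6.74e-06). SEMA3B, which lies near SEMA3F on chromosome 3, and SEMA3G were not called. Their log2 fold changes with priming alone were 0.20 (95% interval -0.26 to 0.67) and 0.21 (-0.27 to 0.68), intervals that do not reach the fall of SEMA3A, and with CPT they were 0.24 (-0.24 to 0.71) and 0.56 (0.089 to 1.03). SEMA3A and SEMA3C made up most of the class, and the summed class 3 level went from 113 ± 5.52 CPM per kb in Con to 79.3 ± 4.17 in GTA+5-Aza, and from 102 ± 7.55 in CPT to 72.1 ± 3.03 in CPT+GTA+5-Aza.

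Among the membrane-bound ligands, several rose and none was called lower. SEMA6B (ENSG00000167680, chromosome 19 from 4542593 to 4581776 on the minus strand), a transmembrane ligand of class A plexins, had 140.4, 167 and 151 CPM in the Con libraries, 139, 182 and 133 in CPT, 247, 208 and 273 in GTA+5-Aza and 239, 234 and 242 in CPT+GTA+5-Aza. Every primed library exceeded every unprimed one, and SEMA6B passed SEMA3A and SEMA3C as the most abundant member per kb in primed cells, at 51.5 ± 6.94 CPM per kb in GTA+5-Aza against 35.9 ± 2.01 for SEMA3C. Its rise was 1.59-fold without CPT (log2 fold change 0.66, SE 0.094, adjusted p = 1.43e-05) and 1.57-fold with CPT (log2 fold change 0.65, SE 0.094, adjusted p = 1.78e-05). SEMA6C (ENSG00000143434, chromosome 1 from 151131685 to 151146631 on the minus strand), of the same class, had 6.99, 10.01 and 10.02 CPM in the Con libraries, 8.14, 12.3 and 13.5 in CPT, 17.7, 18.7 and 18.2 in GTA+5-Aza and 15.3, 14.1 and 17.5 in CPT+GTA+5-Aza. The primed libraries did not overlap with the unprimed ones, yet the call differed between the comparisons. SEMA6C rose 2.02-fold with priming alone (log2 fold change 1.01, adjusted p = 9.71e-05), and with CPT its log2 fold change was 0.47 (adjusted p = 0.0527). That adjusted p was 0.0472 with DESeq2, 0.0308 without CPT replicate 2 and 0.0189 without CPT replicate 3. With each library's trend with GC content removed, in contrast, the log2 fold change of SEMA6C with CPT was 0.30 (adjusted p = 0.217). SEMA6A, at 11 to 30 counts per library, was not called in either comparison.

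SEMA7A (ENSG00000138623, chromosome 15 from 74409289 to 74433958 on the minus strand) is anchored to the membrane by glycolipid and acts on PLXNC1 and on integrins. It was a low gene, with 1.05, 1.57 and 1.22 CPM in the Con libraries, 2.64, 2.07 and 1.75 in CPT, 2.83, 3.76 and 4.12 in GTA+5-Aza and 5.34, 4.54 and 4.78 in CPT+GTA+5-Aza. The groups did not overlap, with Con lowest, CPT next, GTA+5-Aza above it and the triple treatment highest. Priming raised SEMA7A 2.77-fold without CPT (log2 fold change 1.47, SE 0.29, adjusted p = 0.000752) and 2.27-fold with CPT (log2 fold change 1.18, SE 0.28, adjusted p = 0.00342). Its receptor PLXNC1 had 21 to 73 counts per library and was not called, with log2 fold changes of -0.61 (95% interval -1.32 to 0.11) and -0.30 (-1.01 to 0.41), although the GTA+5-Aza libraries of PLXNC1 all lay below those of Con.

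Class 4 ligands, which act mainly on class B plexins, were moderate in level. SEMA4F (ENSG00000135622, chromosome 2 from 74654228 to 74683853 on the plus strand) had 13.4, 12.1 and 12.98 CPM in the Con libraries, 15.7, 16.04 and 14.9 in CPT, 20.7, 19.98 and 22.6 in GTA+5-Aza and 23.9, 19.5 and 20.2 in CPT+GTA+5-Aza. The primed libraries were higher than all unprimed ones. SEMA4F rose 1.65-fold without CPT (log2 fold change 0.72, adjusted p = 0.000139) and 1.36-fold with CPT (log2 fold change 0.45, adjusted p = 0.0109), and the latter had an adjusted p of 0.0893 without CPT+GTA+5-Aza replicate 1. SEMA4C (ENSG00000168758, chromosome 2 from 96859718 to 96870757 on the minus strand), a ligand of PLXNB2, had 39.8, 43.2 and 41.7 CPM in the Con libraries, 45.4, 43.6 and 36.8 in CPT, 48.9, 51.4 and 55.04 in GTA+5-Aza and 51.3, 47.7 and 59.3 in CPT+GTA+5-Aza. The primed libraries all lay above the unprimed ones, but the shift was small, at 1.25-fold without CPT (log2 fold change 0.32, adjusted p = 0.0223) and 1.26-fold with CPT (0.33, adjusted p = 0.0184). The SEMA4C call of the former comparison was lost without Con replicate 1 (adjusted p = 0.0957), Con replicate 3 (0.0676) or GTA+5-Aza replicate 3 (0.107), and that of the latter without CPT replicate 3 (0.106) or CPT+GTA+5-Aza replicate 3 (0.144). SEMA4B, SEMA4D and SEMA4G were not called. SEMA4D, the ligand of PLXNB1, had log2 fold changes of 0.025 (95% interval -0.22 to 0.27) and 0.089 (-0.15 to 0.33). Of the exon bases of SEMA4G, 28% overlap a gene on the opposite strand, as do 9.88% of those of PLXNC1 and 4.87% of those of NRP1, and the strand setting of the counting is not given in the sources used here, so the counts of these 3 genes are uncertain.

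**Figure D3:**
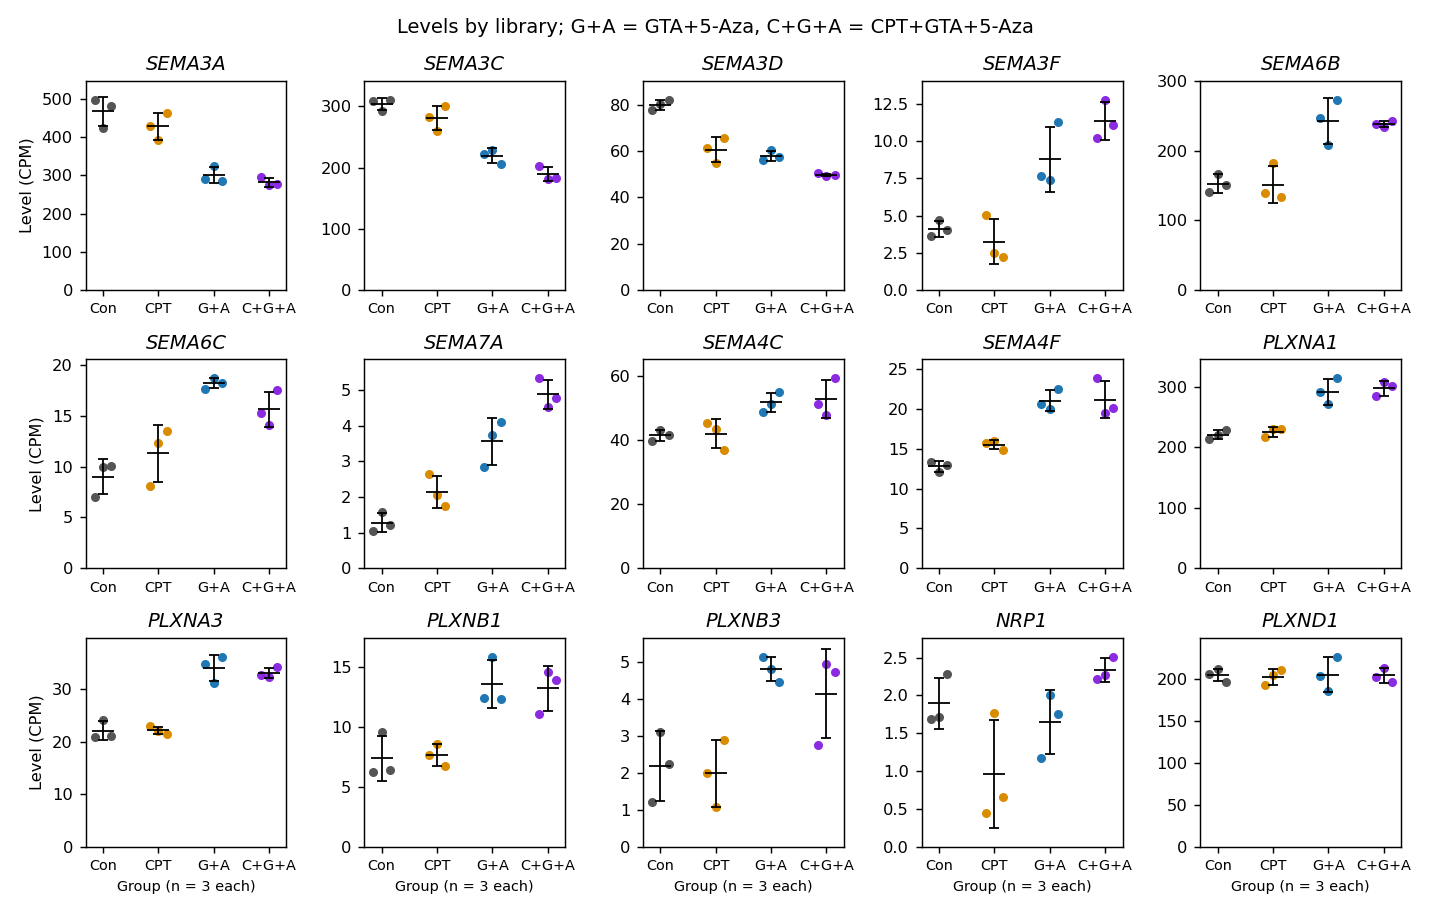
Level in CPM of 15 members in the 12 libraries, a panel per gene with 3 points per group, the mean as a dash and the SD as a bar, on axes that start at 0. Primed groups (G+A and C+G+A) lie below the unprimed ones for SEMA3A and SEMA3C, below Con for SEMA3D, where GTA+5-Aza overlaps with CPT, above them for the genes that rose apart from an overlap in PLXNB3, and overlap with them for NRP1 and PLXND1.

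Plexins changed in one direction only among the calls given above, but not once GC trends were removed, as described below. PLXNA1 (ENSG00000114554, chromosome 3 from 126982693 to 127037389 on the plus strand), a signalling partner of neuropilins, had 214, 220.2 and 228 CPM in the Con libraries, 217, 230.2 and 231 in CPT, 292, 271 and 314 in GTA+5-Aza and 285, 309 and 301 in CPT+GTA+5-Aza. No primed library overlapped with an unprimed one. Its rise was 1.32-fold without CPT and 1.32-fold with CPT, below the fold threshold of the study, with log2 fold changes of 0.41 and 0.40 (adjusted p = 2.68e-05 and 3.22e-05). PLXNA3 (ENSG00000130827, chromosome X from 154458281 to 154477779 on the plus strand), which also pairs with neuropilins, had 20.98, 24.3 and 21.2 CPM in the Con libraries, 22.99, 22.04 and 21.5 in CPT, 34.8, 31.3 and 36.2 in GTA+5-Aza and 32.8, 32.5 and 34.2 in CPT+GTA+5-Aza. The groups separated fully by priming, with a log2 fold change of 0.62 (adjusted p = 0.000108) without CPT and 0.58 (adjusted p = 0.000261) with CPT.

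PLXNB1 (ENSG00000164050, chromosome 3 from 48403854 to 48430086 on the minus strand), the receptor of SEMA4D, had 6.21, 9.58 and 6.42 CPM in the Con libraries, 7.64, 8.61 and 6.77 in CPT, 12.4, 15.9 and 12.4 in GTA+5-Aza and 11.1, 14.6 and 13.96 in CPT+GTA+5-Aza. Replicate 2 was the highest library of each group, and the primed libraries still lay above all unprimed ones. PLXNB1 rose 1.83-fold (log2 fold change 0.87, adjusted p = 0.000954) without CPT and 1.72-fold (0.78, adjusted p = 0.00278) with CPT. PLXNB3 (ENSG00000198753, chromosome X from 153764196 to 153779346 on the plus strand) had 1.21, 3.10 and 2.24 CPM in the Con libraries, 1.98, 1.08 and 2.89 in CPT, 5.13, 4.81 and 4.46 in GTA+5-Aza and 2.75, 4.94 and 4.71 in CPT+GTA+5-Aza. With 22 to 96 counts per library it was a low gene, and CPT+GTA+5-Aza replicate 1 lay below Con replicate 2 and CPT replicate 3. Its log2 fold change was 1.13 (adjusted p = 0.0177) without CPT and 1.06 (adjusted p = 0.0309) with CPT. The former call was lost without Con replicate 1 (0.116), Con replicate 3 (0.0553) or GTA+5-Aza replicate 1 (0.0628), and the latter without CPT replicate 1 (0.0829), CPT replicate 2 (0.108), CPT+GTA+5-Aza replicate 2 (0.136) or CPT+GTA+5-Aza replicate 3 (0.11). In addition, 20.4% of the exon bases of PLXNB3 overlap SRPK3 on the same strand, so its counts are uncertain.

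The plexin with the highest level per kb in Con was not called. PLXND1 (ENSG00000004399, chromosome 3 from 129555214 to 129606676 on the minus strand) had 206, 212 and 197 CPM in the Con libraries, 193, 205 and 211 in CPT, 204, 186 and 227 in GTA+5-Aza and 203, 214 and 197 in CPT+GTA+5-Aza. All 4 groups overlapped. The log2 fold change was 0.0016 (95% interval -0.14 to 0.14) without CPT and 0.011 (-0.13 to 0.15) with CPT, intervals that exclude the rise of PLXNA1. PLXNB2, a receptor of SEMA4C, was not called either, at 132 ± 8.45 CPM in Con and 130.3 ± 9.63 in GTA+5-Aza (log2 fold change -0.021, 95% interval -0.17 to 0.12). With each library's trend with GC content removed, both became lower with priming alone, PLXNB2 by a log2 fold change of -0.21 (adjusted p = 0.0067) and PLXND1 by -0.16 (adjusted p = 0.0388). In that fit PLXNB2 was also lower with CPT (-0.19, adjusted p = 0.0167), whereas PLXND1 was not called (-0.15, adjusted p = 0.0699). In CPT+GTA+5-Aza against Con both were lower there, at -0.23 and -0.16 (adjusted p = 0.00358 and 0.0445).

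NRP1 (ENSG00000099250, chromosome 10 from 33177492 to 33336262 on the minus strand), a receptor shared by class 3 semaphorins and VEGF, had 1.68, 1.72 and 2.29 CPM in the Con libraries, 0.440, 1.77 and 0.655 in CPT, 1.18, 2.00 and 1.75 in GTA+5-Aza and 2.22, 2.27 and 2.51 in CPT+GTA+5-Aza. These values rest on 8 to 47 counts per library, and CPT replicates 1 and 3 lay below all other libraries. NRP1 was called higher with priming in the presence of CPT (log2 fold change 1.26, SE 0.43, adjusted p = 0.0424), whereas with priming alone its log2 fold change was -0.20 (95% interval -1.05 to 0.64). The test of the difference between both responses gave an unadjusted P of 0.0203 (adjusted p = 1). The call was lost without CPT replicate 1 (adjusted p = 0.194), CPT replicate 3 (0.134), CPT+GTA+5-Aza replicate 1 (0.0806), replicate 2 (0.0923) or replicate 3 (0.109). With only both groups in the fit the adjusted p was 0.0821. Without CPT replicate 2, the highest CPT library, the log2 fold change of NRP1 was 2.07 (adjusted p = 0.0017). NRP1 stayed at or under 0.218 CPM per kb in every library.

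The direction of change ran with the base composition of the transcripts. The exons of SEMA3A, SEMA3C and SEMA3D hold 37.2%, 38.7% and 37.2% G and C, and those of the members that rose with priming alone hold 53% (SEMA4F) to 68.3% (SEMA6B). Across the 23 tested members, which share the same libraries and differ in length and level, the Spearman correlation of exon GC content with the log2 fold change was 0.697 with priming alone and 0.472 with CPT, and over all 16472 genes with a GC value it was 0.265 and 0.24. Among all genes with under 40% GC, 3.85% were called higher and 13% lower with priming alone, and 3 of 3 members in that range were lower. Among genes with 60% GC or more, 22.4% were called higher and 2.73% lower, and 7 of 10 members there were higher. The median log2 fold change was -0.088 for all genes under 40% GC and 0.19 for those at 60% or more, where the members had -0.47 and 0.77. With each library's GC trend removed, 9 members were higher and 5 lower with priming alone, beside 9.22% and 9.89% of all genes, and 8 were higher and 4 lower with CPT, beside 9.46% and 10.4%. The members' median was then 0.032 with priming alone and 0.24 with CPT on the log2 scale, beside -0.0063 and -0.0067 for all genes. SEMA3A, SEMA3C and SEMA3D were still called lower there, at log2 fold changes of -0.55, -0.39 and -0.39 without CPT. With CPT they had -0.52, -0.50 and -0.20, and the adjusted p of SEMA3D was 0.037. SEMA4C was no longer called, at a log2 fold change of 0.17 with priming alone (adjusted p = 0.168). Neither was PLXNB3 in the presence of CPT (0.84, adjusted p = 0.0824), and the log2 fold change of PLXNA1 dropped to 0.23 without CPT (adjusted p = 0.0023).

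**Figure D4:**
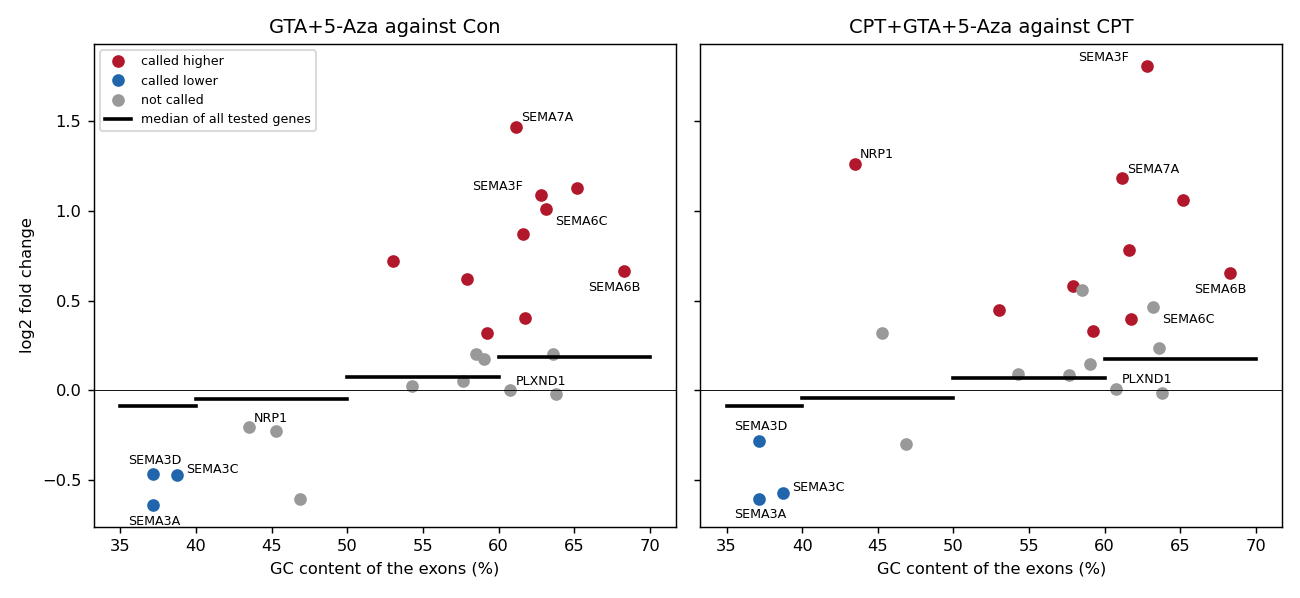
The log2 fold change of the 23 tested members against the GC content of their exons in percent, for GTA+5-Aza against Con on the left and for CPT+GTA+5-Aza set against CPT on the right, with black lines at the median of all tested genes in 4 GC ranges. The 3 members called lower sit at 37.2 to 38.7% GC, and all members called higher on the left sit above 50%, farther from 0 than the lines.

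The full combination was also compared with DMSO-treated cells. In CPT+GTA+5-Aza against Con, 9 members rose and 3 fell, beside 9.62% and 7.16% of all genes, and 10 passed the thresholds of the study, beside 8.32%. This comparison shares its Con libraries and its primed libraries with those above, so it is not independent of them. SEMA7A was 3.79-fold higher (log2 fold change 1.92, adjusted p = 3.08e-05) and SEMA3F 2.76-fold higher (1.46, adjusted p = 6.99e-05). SEMA3A, SEMA3C and SEMA3D were 1.66-fold, 1.61-fold and 1.61-fold lower. PLXNB3, at a log2 fold change of 0.91 and an adjusted p of 0.0612, was not called, but was without Con replicate 2 (0.0229) or CPT+GTA+5-Aza replicate 1 (0.0343). SEMA4C was called (log2 fold change 0.34, adjusted p = 0.0136), except without Con replicate 1 (0.0667) or CPT+GTA+5-Aza replicate 3 (0.121).

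Whether CPT itself acts on these genes was asked in unprimed and in primed cells. In CPT against Con, edgeR's quasi-likelihood test called 0 members, beside 0% of all genes, and 4 had an unadjusted P under 0.05, beside 4.28% of all genes. DESeq2 and edgeR's likelihood ratio test each called 1 member lower, SEMA3D, beside 0.00584% and 0.0117% of all genes. SEMA3D was 1.32-fold lower in CPT, with all 3 CPT libraries below all Con libraries, and in the quasi-likelihood test its values were log2 fold change -0.40, SE 0.078, adjusted p = 0.125 and unadjusted P = 2.17e-05. The adjusted p was 0.00162 with DESeq2, 0.00809 by the likelihood ratio test, 0.0145 when low counts were not filtered and 0.0117 with the GC trend removed. When each library was left out in turn it ran from 0.0726 to 0.661. The thresholds of the study were passed by 2 members, beside 1.83% of all genes, namely SEMA7A (log2 fold change 0.74, unadjusted P = 0.0204) and NRP1 (-0.97, unadjusted P = 0.0332), both with an adjusted p of 1. SEMA7A did not pass without Con replicate 1 (unadjusted P = 0.0721) or CPT replicate 1 (0.0955). NRP1 did not pass without Con replicate 3 (0.11), CPT replicate 1 (0.166) or CPT replicate 3 (0.114), and its log2 fold change was -1.78 without CPT replicate 2. SEMA4F was the other member with an unadjusted P under 0.05, with a value of 0.28 on the log2 scale (unadjusted P = 0.031).

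In primed cells, the comparison of CPT+GTA+5-Aza with GTA+5-Aza gave 0 called members by the quasi-likelihood test, beside 0% of all genes, and 0 by DESeq2, beside 0.00584% called higher and 0% lower. The thresholds of the study were passed by 0 members, beside 1% of all genes. An unadjusted P under 0.05 was found for 2 members, beside 2.71% of all genes, SEMA3C (log2 fold change -0.21, unadjusted P = 0.00249) and SEMA3D (-0.22, unadjusted P = 0.0115), each with an adjusted p of 1 and with all libraries that received CPT below those that did not. By the quasi-likelihood test SEMA3D thus had lower values with CPT in both settings, without passing the adjustment in either. The interaction of CPT and priming was called for 0 members by edgeR's quasi-likelihood test and for 0 by DESeq2, beside 0% of all genes, and 3 members had an unadjusted P under 0.05, beside 2.63%. The interval of the interaction was narrow for abundant members, -0.16 to 0.23 for SEMA3A and -0.28 to 0.26 for SEMA6B, and wide for low ones, -1.11 to 0.53 for SEMA7A.

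Partners and effectors of the pathway were read from a list of 48 genes chosen for their roles, of which 41 were tested. With priming alone 8 were called higher and 6 lower, beside 9.95% and 7.53% of all genes, with a median of 0.068 on the log2 scale, and with CPT 6 were higher and 8 lower, beside 9.57% and 7.39%, with a median of 0.083. Of the list, 4 genes passed an adjusted p under 0.05 with a fold change above 1.5 in both comparisons, and all of them were higher. RRAS, a Ras-family GTPase that plexins inactivate, went from 16.7 ± 0.963 CPM in Con to 34.5 ± 4.19 in GTA+5-Aza and from 17.3 ± 3.26 in CPT to 34.8 ± 2.94 in CPT+GTA+5-Aza, with log2 fold changes of 1.04 and 1.01 (adjusted p = 2.04e-06 and 3.4e-06). MICAL1, an oxidase of actin that binds plexins, went from 22.6 ± 2.06 CPM in Con to 42.6 ± 2.33 in GTA+5-Aza (log2 fold change 0.91, adjusted p = 6.22e-07) and had a log2 fold change of 0.60 with CPT. PTK7, a receptor-like protein that associates with plexins, rose by 0.75 and 0.61 on the log2 scale. PGF, a ligand of VEGF receptors and neuropilins, was low, at 1.64 ± 0.665 CPM in Con and 5.02 ± 0.687 in GTA+5-Aza, and rose by 1.61 without and 2.24 with CPT on the log2 scale (adjusted p = 0.00169 and 8.03e-05).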

How the data were processed

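RNA-seq was performed on MiaPaca2 cells, 3 libraries per group. The authors deposited raw read counts per Ensembl gene identifier, and per the submitters' processing notes reads were trimmed with Trim Galore, aligned to GRCh38 with HISAT2 2.2.1 and counted with HTSeq. The strand setting is not given in the sources used here. Counts were tested with edgeR 4.0.16 (R 4.3.3) by the quasi-likelihood test, with all 12 libraries in a single fit, TMM scaling, edgeR's default filter on low counts (17123 genes tested of 63677) and Benjamini-Hochberg adjustment over all tested genes. Gene names, positions, exon lengths and GC content came from GENCODE v44, in which 11496 identifiers were not found. Members and lists were chosen with earlier results of these data known. The members given in full were those called in GTA+5-Aza against Con, in CPT+GTA+5-Aza set against CPT or in the interaction, the 5 with the highest level per kb of exon in Con, and those past the study's thresholds in a comparison of CPT, and partners were named when called in both comparisons with a fold change above 1.5. Replicates of a group differed by more than sampling noise (chi-square per degree of freedom 3.9 to 17.2), and each was counted as its own sample. Such a spread cannot show whether they came from separate experiments. A count of 0 allows up to 3 counts, which covers counting error only. DESeq2 1.42.0, edgeR's likelihood ratio test and glmTreat, other scalings, no filter, fits of only 2 groups, a replicate block, fits without each library in turn and fits with the GC trend of every library removed were run as alternatives, for the single members in the comparisons with CPT by a choice made after seeing the data. The fits were checked on simulated counts.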

Additional observations from a re-analysis of the deposited data

Results flagged for a closer look

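The difference between the response to priming with and without CPT was past an unadjusted P of 0.05 for 3 members by the quasi-likelihood test of edgeR, beside 2.63% of all genes, where the adjusted p over all genes was 1 for each. For NRP1 the interaction was 1.468 on the log2 scale (unadjusted P = 0.0203), with the 3 CPT+GTA+5-Aza libraries above all CPT libraries and the GTA+5-Aza libraries overlapping with Con. It ran from 1.13 to 2.281 when each library was left out in turn, and the unadjusted P was over 0.05 without CPT replicate 1 (0.0631), Con replicate 3 (0.0526) or GTA+5-Aza replicate 1 (0.0526). For SEMA6C the interaction was -0.5449 (unadjusted P = 0.0282), the smaller rise being the one with CPT, and it ran from -0.733 without CPT replicate 1 to -0.3957 without Con replicate 1. The unadjusted P of SEMA6C was over 0.05 without Con replicate 1 (0.103), CPT replicate 2 (0.0518), CPT replicate 3 (0.0973), CPT+GTA+5-Aza replicate 1 (0.0501) or CPT+GTA+5-Aza replicate 2 (0.0714). For SEMA3F the interaction was 0.7203 (unadjusted P = 0.0421), the larger rise being the one with CPT, and it ran from 0.5192 without CPT replicate 3 (unadjusted P = 0.123) to 1.165 without CPT replicate 1. Without Con replicate 2 or 3, CPT replicate 2 or 3, GTA+5-Aza replicate 1 or 2, or CPT+GTA+5-Aza replicate 2 or 3, the unadjusted P of SEMA3F was 0.0542 to 0.123.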

How the results depend on the processing

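With each library's GC trend removed, the members called lower numbered 5 with priming alone and 5 under the triple treatment relative to Con, and PLXND1 turned to -0.1642 on the log2 scale with priming alone. In CPT against Con, 1 member was called lower with DESeq2 (0.00584% of all genes), 1 by the likelihood ratio test (0.0117%), 1 when low counts were not filtered (0.0219%) and 1 with the GC trend removed (0.00584%), and the thresholds of the study's methods were passed by 0 members both with only the 2 groups in the fit and with glmTreat. The cause of these shifts was not tested. When each library was left out in turn, 8 to 10 members were higher and 3 lower with priming alone, 7 to 11 higher and 2 to 3 lower with CPT, and 8 to 10 higher and 3 lower in CPT+GTA+5-Aza against Con. The study's thresholds were then passed by 1 to 2 members in CPT against Con and by 0 to 1 in CPT+GTA+5-Aza compared with GTA+5-Aza, the 1 arising without GTA+5-Aza replicate 3. Same-numbered libraries did not deviate together (correlations of -0.048 to 0.117), and under a replicate block the members' calls were 10 higher and 3 lower with priming alone, 11 and 3 with CPT, 9 and 3 against Con, and 0 in CPT against Con. NRP1, SEMA3F, SEMA7A and PLXNB3 were limited by their depth, at 8 to 225 counts per library.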
